A study of Homo sapiens with 6 samples.

Results

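The histone genes of RBM12-depleted neurons were examined before and after isoproterenol. Members were chosen by gene name alone, as every gene of the table whose symbol begins with H1-, H2A, H2B, H3-, H3C, H4-, H4C or MACROH2A, which gave 41 of 19823 genes. No measured value entered that rule. However, the family was singled out with earlier results of this same contrast known, so all differences between the groups are given as a description of the fit over all genes, and no test over the family was run. The 41 genes comprise 18 clustered genes (H2AC, H2BC, H3C or H4C followed by a number), 16 variant genes, the linker histone gene H1-2, and 6 pseudogenes or non-coding genes.

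The neurons were glutamatergic iNeurons made from WTc11, a clonal human induced pluripotent stem cell line, by induced expression of the transcription factor NGN2. In all 6 samples the RNA-binding protein RBM12 was depleted by CRISPR interference, in the parental line with its native β2-adrenergic receptors, and no sample with a control guide is part of the series. There were 3 samples of untreated neurons and 3 of neurons given isoproterenol, an agonist of β-adrenergic receptors that raises cAMP. The labels state neither the dose nor the time of treatment, and nothing in them says whether the replicates were separate cultures, so the p-values measure only the spread between these samples.

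Histones are the proteins around which DNA is wound in the nucleosome, with a pair each of H2A, H2B, H3 and H4 in the core and a linker histone H1 at the DNA entry site. Clustered genes lie in tandem groups, are transcribed mainly while DNA is copied in dividing cells, have no introns in their coding message, and end that message in a conserved stem-loop in place of a poly(A) tail. Variant genes lie apart from the main clusters and encode replacement forms such as H3.3, H2A.Z and macroH2A, mostly as spliced and polyadenylated mRNAs that non-dividing cells such as neurons go on making. The libraries were made from poly(A)-selected RNA, so a count for a clustered gene came from molecules that passed that selection. Stem-loop mRNA without a tail is not selected by design, and how much of it was counted is not known.

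The stem-loop separates most clustered genes from variants in sequence, and the copies carried by the genes that the results turn on are therefore shown. In GRCh38, each was read with the GENCODE release 44 annotation within 150 bases after the stop codon, as a match to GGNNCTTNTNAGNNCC in which the NN pairs are complementary. Capitals mark the bases that form the stem and lower case marks the loop.
H2AC6, chr6:26124669-26124684, plus strand: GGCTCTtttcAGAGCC
H2BC5, chr6:26158587-26158602, plus strand: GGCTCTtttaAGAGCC
H2BC6, chr6:26184210-26184225, plus strand: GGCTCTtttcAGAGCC
H3C6, chr6:26225596-26225611, plus strand: GGCTCTtctcAGAGCC
H2BC21, chr1:149886188-149886203, minus strand: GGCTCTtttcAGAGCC
H2AX, chr11:119094898-119094913, minus strand: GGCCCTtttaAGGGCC
A match was found in 70 of 19924 protein-coding genes (0.351%), all 70 of them named by the histone rule. Of the clustered genes, 16 of 18 had one, the exceptions being H2AC11 and H2AC15. H1-2 had one, as did 5 of the 16 variant genes, namely H2AW, H2AX, H2BU1, H3-2 and H4-16. A match describes these letters and does not show how a message ends in these neurons. H2AC6, H2BC5, H2BC6 and H3C6 are annotated with 1668, 861, 2585 and 2679 exon bases, more than the short stem-loop message and split by introns. Which form their counts came from was not tested.

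Isoproterenol acts through cAMP and the transcription factor CREB, which binds the CRE sequence, so promoters were also read. The 250 bases before the first start that RefSeq lists for each gene (GRCh38.p14) are shown for 4 of the genes called with the replicate block described later, H2AC6, H2BC6 and H3C6, which were higher after isoproterenol, and H3-3B, which was lower. Capitals mark matches on either strand to the CCAAT box (CCAAT), the TATA box (TATAAA), and the octamer (ATTTGCAT), a sequence known from histone H2B promoters.
H2AC6, chr6:26123922-26124171, plus strand: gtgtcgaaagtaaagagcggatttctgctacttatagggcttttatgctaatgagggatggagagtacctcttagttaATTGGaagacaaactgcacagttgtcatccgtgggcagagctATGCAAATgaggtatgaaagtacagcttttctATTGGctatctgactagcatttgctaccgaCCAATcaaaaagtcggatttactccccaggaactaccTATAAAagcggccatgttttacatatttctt
H2BC6, chr6:26183511-26183760, plus strand: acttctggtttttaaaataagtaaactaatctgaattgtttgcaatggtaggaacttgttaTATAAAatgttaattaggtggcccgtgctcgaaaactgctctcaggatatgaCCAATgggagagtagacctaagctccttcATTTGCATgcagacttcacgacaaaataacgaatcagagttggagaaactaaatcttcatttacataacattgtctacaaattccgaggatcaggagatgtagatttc
H3C6, chr6:26223928-26224177, plus strand: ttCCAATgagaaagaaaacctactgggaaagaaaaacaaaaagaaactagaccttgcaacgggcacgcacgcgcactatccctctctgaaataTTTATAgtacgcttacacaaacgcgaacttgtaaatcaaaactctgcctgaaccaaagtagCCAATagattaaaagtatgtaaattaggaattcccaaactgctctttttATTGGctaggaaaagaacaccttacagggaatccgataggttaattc
H3-3B, chr17:75779780-75780029, minus strand: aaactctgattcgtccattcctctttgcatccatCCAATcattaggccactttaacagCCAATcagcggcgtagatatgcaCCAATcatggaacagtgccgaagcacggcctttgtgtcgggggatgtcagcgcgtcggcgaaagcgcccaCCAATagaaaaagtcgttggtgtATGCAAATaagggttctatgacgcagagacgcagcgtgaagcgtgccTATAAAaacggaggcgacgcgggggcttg
RefSeq promoters of 300 bases, reaching 50 bases past the start, were found for 34 of the 41 genes. The CRE (TGACGTCA) was present in 2 of 18 clustered genes, H2BC12 and H4C8, in none of 14 variant genes, and in 2.25% of the 27305 genes with a promoter. Its shorter core (TGACG, which every full CRE contains) was present in 13 of 18 clustered and 6 of 14 variant genes, against 28.4% of all genes. H2AC6, H2BC6 and H3C6 held neither form in this window. RefSeq lists another start for H3C6, with a window from 26224885 to 26225184, which also held neither form and had a CCAAT box but no TATAAA. H2BC5 and H3-3B, which were also called with the block, held the core. So did H4C15, H2AC11 and H4C14, which had large but uncalled log2 fold changes. The octamer was found in 9 of 18 clustered genes, in 1 of 14 variant genes (H3-3B), and in 2.19% of all genes. The CCAAT box was found in 14 of 18 clustered and 11 of 14 variant genes (39.7% of all genes) and TATAAA in 11 of 18 and 6 of 14 (14.0% of all genes). Not all of these promoters are separate sequences. Those of H2BC8 and H2AC8, H2BC11 and H2AC11, H2BC15 and H2AC15, and the variants H2AW and H2BU1 overlap on opposite strands. Those of H4C14 and H4C15 have identical letters, so the counts over genes repeat some stretches.

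Depth was similar across the libraries, with 18116816 to 21488793 reads recovered per sample, of which 0.175 to 0.190% lay on the 41 histone genes. RBM12 was listed at 244.3, 278.7 and 266.9 normalized counts in replicates 1, 2 and 3 of the untreated group and at 194.6, 237.6 and 232.8 in those given isoproterenol. Without a control guide these values do not check the knockdown. The labelled cell type was checked against 10 glutamatergic neuron markers, which all had values. SLC17A6, the vesicular glutamate transporter VGLUT2, lay between 12392.9 and 14709.9 normalized counts and MAP2, a dendritic protein, between 32515.0 and 34627.4, while TUBB3, a neuronal tubulin, lay only between 69.2 and 94.4. Fitted differences of 8 of the 10 were above 0, with a median log2 fold change of 0.021, although those of MAP2 and SNAP25 rounded to 0.00. Summed over the 10 markers the level was 331658 to 366244 in untreated and 317742 to 342030 in isoproterenol samples. Most of that sum came from NEFM, a neurofilament subunit, which went from 260503 ± 18882 to 236361 ± 11782 normalized counts (mean ± SD, n = 3). NEFM was lower in each of 3 pairs, and its adjusted p was 0.696 in limma, 0.326 in limma with the block and 6.46e-11 in edgeR with the block. Of the progenitor genes, SOX2 was at 0 in 5 of 6 samples, whereas NES, which encodes the intermediate filament nestin, lay between 6654.3 and 7105.8, PAX6 between 38.7 and 57.7 and LIN28A between 9.2 and 18.6.

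Most histone reads in these neurons came from variant genes. The 16 variant genes summed to 33793 ± 1216 normalized counts (mean ± SD, n = 3) in untreated neurons, the 18 clustered genes to 3646 ± 43.1, and the 6 pseudogenes or non-coding genes to 949 ± 78.8. Per kilobase of exon, the untreated level of H1-10, a replication-independent linker histone, was 3003 normalized counts per kb. The genes that encode the replacement histone H3.3 stood at 1461 (H3-3A) and 1351 (H3-3B). H2BC21 was at 1134 and H2AZ1, which encodes H2A.Z, at 947. These levels rest on all exons annotated for a gene, so a gene with long annotated ends is understated, as for MACROH2A1 at 157 and MACROH2A2 at 158, the genes of the large macroH2A variants.

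H2BC21 held 69.2 ± 3.84% of the clustered counts in untreated and 62.4 ± 3.24% in isoproterenol samples. H2AC6, H2BC5, H2BC6, H3C6 and H2BC8 followed, with untreated means between 102 and 252 normalized counts. The other 11 clustered genes tested had untreated means between 6.81 and 26.9, where 1 recovered read was worth 0.968 to 1.15 normalized counts. For those 11 genes the standard error of the log2 fold change was 0.273 to 0.521, against 0.053 to 0.200 for the 6 more abundant ones.

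With classes set by the symbols used here, every one of the 17 clustered genes that passed the filter on low counts had a higher fitted level after isoproterenol. Variant genes went either way. Log2 fold changes of the clustered genes ran from 0.03 for H2BC21 to 0.79 for H4C15, with a median of 0.394. Over all 18130 genes tested the median was 0.002, and 50.5% were higher. Of the 15 variant genes tested, 5 were higher and 10 lower, with a median of -0.018 and 9 of them within 0.1 of no change. The count of clustered genes depends on naming. GENCODE calls the variants H2AW, H2BU1 and H4-16 by the names H2AC25, H2BC26 and H4C16, which would make them clustered genes. H2AW and H2BU1 were higher (log2 fold changes of 0.09 and 0.24), but H4-16 was lower (-0.02 ± 0.210 SE). By those names, not every tested clustered gene was higher. The medians of the clustered genes within same-numbered pairs 1, 2 and 3 were 0.445, 0.363 and 0.513. Those of the variants were 0.010, 0.013 and -0.014. A total of 7 clustered genes (41.2%) were higher in all 3 pairs, compared with 18.5% of all genes, so the single genes did not all move the same way in each pair. Leaving out 1 sample at a time left 15 to 17 of the 17 clustered genes higher, with medians of 0.334 to 0.575.

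**Figure D1:**
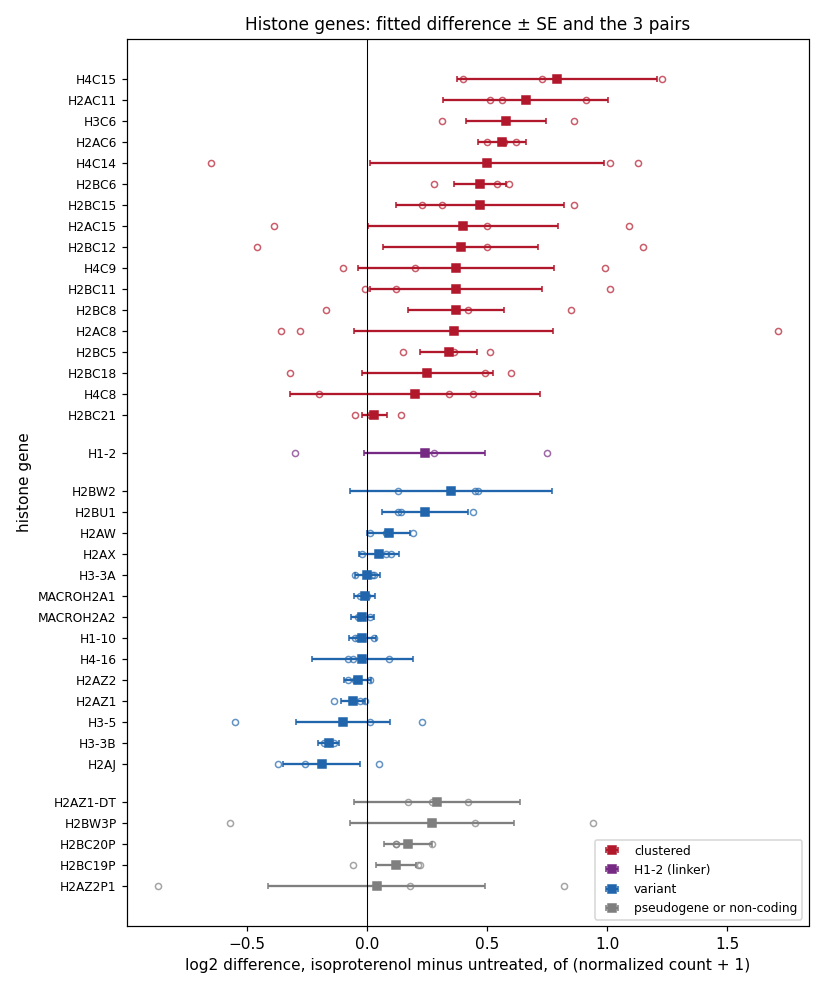
Log2 difference between isoproterenol and untreated neurons for 37 of the 38 histone genes tested, with 1 row per gene, grouped by class. Squares show the fitted difference with its standard error and open circles the 3 same-numbered pairs, and all 17 clustered squares lie right of 0 while the 14 variant squares shown lie on both sides.

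No histone gene passed an adjusted p of 0.05 in limma (Benjamini-Hochberg over all genes), which called 3 of 18130 genes, or 0.0165%. At an unadjusted p under 0.05 there were 6 histone genes among 1393 genes (7.68% of those tested), and edgeR's quasi-likelihood test on recovered reads also called no histone gene. DESeq2 called 1 histone gene, H2AC6, and 0.116% of all genes. The titles give replicate numbers but state no pairing, which was inferred from these same data as described below. With replicate number as a block, limma called 6 histone genes and 4.88% of all genes. Of these, 5 rose, among them the clustered genes H2AC6, H2BC5, H2BC6 and H3C6 (2.82% of all genes were called higher), and the 1 that fell was H3-3B (2.06% of all genes were called lower). The same 6 genes passed in edgeR with the block, which called 5.39% of all genes. Without isoproterenol replicate 2, H2AC6 and H3-3B passed in limma without the block, and without any other single sample no histone gene did.

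H2AC6, a clustered H2A gene, had 277.8, 228.4 and 250.3 normalized counts in the untreated samples (replicates 1, 2 and 3, as in all lists of values here) and 393.1, 340.2 and 385.7 in the treated ones. The groups did not overlap, and each pair was higher after isoproterenol by 0.50, 0.57 and 0.62 on the log2 scale. The log2 fold change was 0.56 ± 0.10 (SE), with a limma adjusted p of 0.0887 without and 4.81e-07 with the block, and a range of 1.00e-07 to 0.401 over the 16 alternatives. Only 0.421% of the 50-base stretches in its exons occur in another gene.

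H2BC6, a clustered H2B gene, had 244.3, 194.5 and 228.6 normalized counts in untreated neurons and 297.4, 294.1 and 333.4 in treated ones, again with no overlap. Its log2 fold change was 0.47 ± 0.108 (SE), with a limma adjusted p of 0.205 without and 1.90e-04 with the block (1.16e-04 to 0.717 over the alternatives). An antisense gene overlaps 730 bases of its exons, and since the sources used here do not state whether counting used strand, reads of the pair cannot be told apart.

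H3C6, the one clustered H3 gene among the members, had 167.1, 112.2 and 192.4 normalized counts in untreated neurons and 250.5, 204.1 and 239.0 in treated ones. The lowest treated sample lay just above the highest untreated one. The log2 fold change of 0.58 ± 0.167 (SE) came with a limma adjusted p of 0.375 without and 9.95e-05 with the block (7.12e-05 to 0.935 over the alternatives), and untreated replicate 2 was the lowest sample of its group for all of H2AC6, H2BC5, H2BC6 and H3C6. Without that sample the log2 fold change of H3C6 was 0.36.

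H2BC5, another clustered H2B gene, had 276.7, 205.1 and 225.5 normalized counts in untreated neurons and 307.3, 264.1 and 322.1 in treated ones. Its groups overlapped, although each pair was higher, by 0.15, 0.36 and 0.51. The log2 fold change was 0.34 ± 0.118 (SE) and the limma adjusted p was 0.481 without and 0.0141 with the block (0.0134 to 0.935 over the alternatives).

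**Figure D2:**
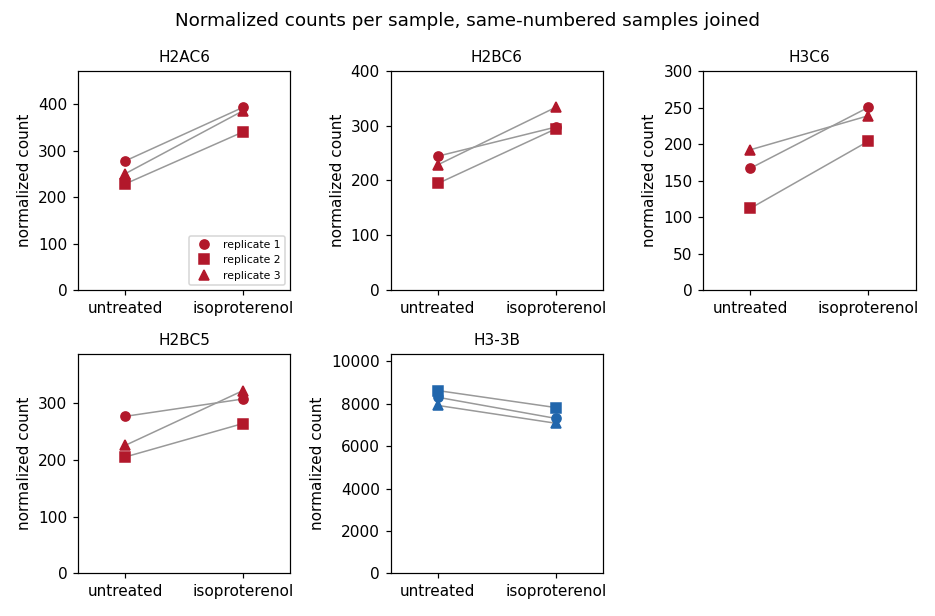
Normalized counts per sample of 5 histone genes called with the replicate block, with lines joining untreated and isoproterenol samples of the same number and axes starting at 0. H2AC6, H2BC6, H3C6 and H2BC5 were higher after isoproterenol in each of 3 pairs, and H3-3B was lower in each.

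These 4 clustered genes lie on chromosome 6 between positions 26124145 and 26227473 of GRCh38, a stretch of 103 kb that was picked after its values were seen. Of 6 tested clustered genes in it, 4 were called with the block, the others being H2BC8 and H2AC8. None of the 11 tested clustered genes outside it was called, yet all 11 had a higher fitted level, with a median log2 fold change of 0.394 against 0.420 inside. The 4 called genes were also among the 6 clustered genes with an untreated mean of at least 100 normalized counts, and no gene below that level was called, so position and precision coincide here. H2BC8, an H2B gene of the same stretch, had 102.3, 101.6 and 101.4 normalized counts in untreated neurons and 137.7, 90.0 and 183.6 in treated ones. Its treated samples spread to both sides of the untreated ones, with a log2 fold change of 0.37 ± 0.200 (SE) and a limma adjusted p of 0.698 without and 0.147 with the block. Leaving out isoproterenol replicate 3 gave 0.13, and leaving out isoproterenol replicate 2 gave 0.64.

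H2BC21, the most abundant clustered gene, lies in the smaller cluster on chromosome 1 and was not called in either fit. It had 2388.1, 2714.2 and 2466.2 normalized counts in untreated neurons and 2634.3, 2626.0 and 2475.2 in treated ones, which overlapped. Its log2 fold change was 0.03 ± 0.053 (SE), and it turned to -0.01 without untreated replicate 1. Because of its abundance, the summed clustered level depended on it. The 18 genes summed to 3617, 3695 and 3625 normalized counts in untreated neurons and 4252, 3993 and 4172 in treated ones, a ratio of means of 1.14. Without H2BC21 the other 17 summed to 1229, 981 and 1159 against 1617, 1367 and 1697, a ratio of 1.39, with 1.32, 1.39 and 1.46 within the pairs. In both sums every treated sample lay above every untreated one. The clustered share of all histone counts was 9.34, 9.34 and 9.80% in untreated neurons and 11.03, 10.14 and 11.22% in treated ones. The difference of the means, 1.30 percentage points, compares with SDs of 0.267 and 0.577.

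**Figure D3:**
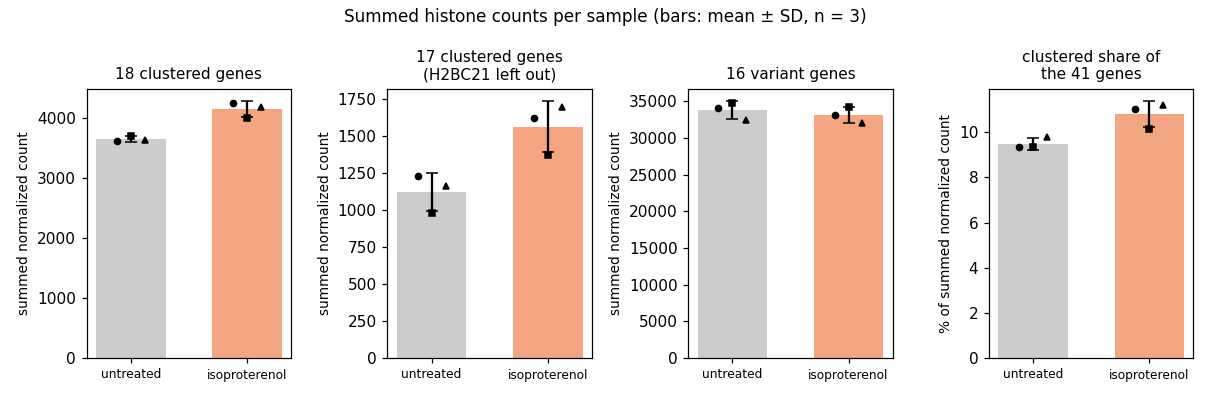
Summed normalized counts per sample of the clustered genes with and without H2BC21 and of the variant genes, and the clustered share of all histone counts in percent. Bars show means with SD (n = 3) and points the samples, and the treated samples lie above the untreated ones in both clustered sums and in the share, while the variant sums overlap.

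The remaining clustered genes had few reads. Of the 11 with an untreated mean under 100, the groups were apart for 2, H2AC11 and H4C15. H2AC11, an H2A gene without a stem-loop match, had 12.5, 8.7 and 15.5 normalized counts in untreated neurons and 19.0, 17.3 and 22.6 in treated ones, with a log2 fold change of 0.66 ± 0.342 (SE) and a limma adjusted p of 0.669. H4C15 went from 6.81 ± 1.77 to 12.3 ± 2.21 (mean ± SD, n = 3). The whole of its exon sequence is shared with other genes, chiefly H4C14, which in turn shares 97.5% and had 11.5, 5.8 and 14.5 against 7.0, 12.7 and 32.8, so reads of the H4C14 and H4C15 copies cannot be assigned with certainty. H2BC12 (57.2% shared) and H2BC18 (50.6% shared) had log2 fold changes of 0.39 and 0.25, H2BC15 had 0.47 and H4C8 had 0.20. H2BC12 ranged from 0.08 without untreated replicate 3 to 0.66 without untreated replicate 2. H2BC18 stood at 0.08 with untreated replicate 3 left out and at 0.41 with isoproterenol replicate 2 left out, and H2BC15 from 0.20 without isoproterenol replicate 1 to 0.80 without isoproterenol replicate 2. H4C8 turned to between -0.24 and -0.07 when untreated replicate 2, isoproterenol replicate 1 or isoproterenol replicate 3 was left out. Without the clustered genes that share at least 50% of their 50-base stretches, the median of the other 13 was 0.373 and all 13 were higher. H4C12, which was not tested, had 3.1 to 3.9 normalized counts in untreated neurons and 4.6 to 6.0 in treated ones.

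By core histone type, the medians of the log2 fold changes were 0.482 over 4 clustered H2A genes, 0.370 over 8 H2B genes and 0.431 over 4 H4 genes, beside 0.58 for H3C6. The 13 tested genes on chromosome 6 had a median of 0.394 and the 4 on chromosome 1 a median of 0.376. Groups did not overlap for 5 of the 38 tested members with isoproterenol higher, all of them clustered (6.73% of all genes did so), and for 1 with isoproterenol lower, H3-3B (6.19% of all genes). The scatter of the log2 fold change over all genes narrowed with the level. In genes with a mean of 160 to 320 normalized counts, the band that holds H2AC6, H2BC5, H2BC6 and H3C6, the 5th and 95th percentiles were -0.226 and 0.260, and these 4 genes lay above the latter. In genes with a mean of 10 to 20 the same percentiles were -0.641 and 0.728, with a median of 0.045.

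**Figure D4:**
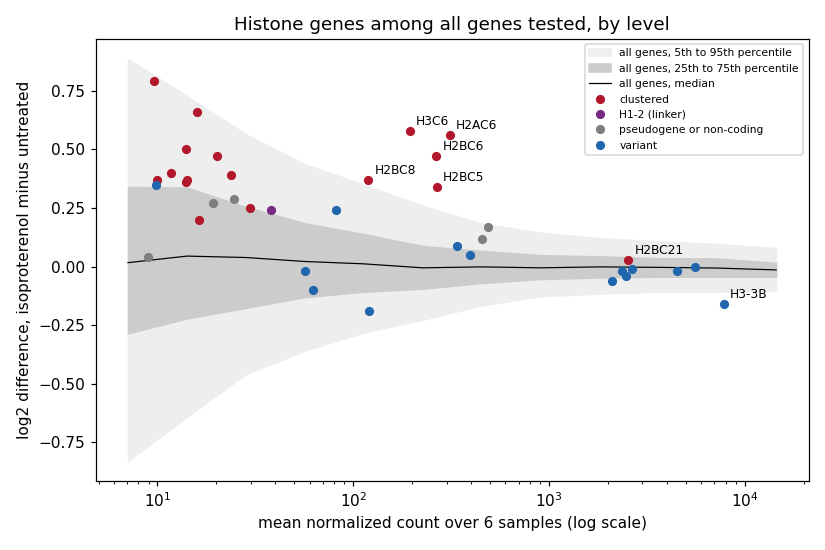
Log2 difference between isoproterenol and untreated neurons against the mean normalized count (log scale) for 37 of the histone genes, over bands that hold the 5th to 95th and 25th to 75th percentiles of all genes tested at each level. H2AC6, H2BC6, H3C6 and H2BC5 lie above the wider band, H2BC8 at its edge and H3-3B below it, while the low-count clustered genes lie mostly inside it.

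Among the variants, H3.3 is made from a pair of genes that encode the same protein, of which only H3-3B was called with the block. H3-3B had 8309.7, 8625.4 and 7925.0 normalized counts in untreated neurons and 7314.0, 7824.9 and 7084.9 in treated ones, with every treated sample below every untreated one. Its log2 fold change was -0.16 ± 0.044 (SE), and -0.18, -0.14 and -0.16 within the pairs, with a limma adjusted p of 0.273 without and 9.93e-08 with the block (5.55e-09 to 0.934 over the alternatives). H3-3A had 5619.9, 5977.0 and 5174.4 against 5734.5, 5754.8 and 5251.9, which overlapped throughout. Its fitted difference was -0.00136 ± 0.052 (SE), and whether the change of H3-3B differed from that of H3-3A was not tested. Summed over both genes, H3.3 transcripts stood at 13877 ± 753 normalized counts in untreated neurons and 12988 ± 624 in treated ones, with ratios of 0.94, 0.93 and 0.94 within the pairs. Of the exon sequence of H3-3B, 179 bases are overlapped by the antisense gene UNK, and 18.9% of the 50-base stretches of H3-3A are shared with other genes.

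Linker histone genes outside and inside the clusters were read as well. H1-10 had 4407.6, 4829.4 and 4422.3 against 4269.7, 4921.0 and 4292.8, a log2 fold change of -0.02 ± 0.055 (SE). H1-2, a linker gene of the chromosome 6 cluster, had 37.6, 35.8 and 30.0 against 45.9, 28.8 and 51.3, a log2 fold change of 0.24 ± 0.253 (SE) that was negative in pair 2. Leaving out isoproterenol replicate 3 gave 0.08 for H1-2, and leaving out isoproterenol replicate 2 gave 0.49.

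No H2A variant was called in either fit. H2AZ1 and H2AZ2, which encode both forms of H2A.Z, had log2 fold changes of -0.06 ± 0.050 and -0.04 ± 0.056 (SE). MACROH2A1 and MACROH2A2 had -0.01 ± 0.044 and -0.02 ± 0.048 (SE). H2AX, which encodes the H2A form that is phosphorylated at DNA breaks and whose message carries a stem-loop match, had 377.0, 373.5 and 414.8 normalized counts in untreated neurons and 403.1, 394.4 and 410.3 in treated ones, a log2 fold change of 0.05 ± 0.083 (SE). H2AJ had the lowest value among variants, at -0.19 ± 0.159 (SE), with pair 3 at 0.05 and overlapping groups, and stood at -0.08 without untreated replicate 1 and -0.37 without untreated replicate 3. H2BU1, an H2B variant with a stem-loop match, had 83.5, 76.4 and 65.2 against 91.8, 103.8 and 71.8, a log2 fold change of 0.24 ± 0.180 (SE) (0.12 with isoproterenol replicate 2 left out, 0.38 with isoproterenol replicate 3 left out). The 4 tested variants with a stem-loop match had a median of 0.074 and the 11 without one a median of -0.021. With all protein-coding members divided by the stem-loop in place of the name, 19 of the 20 tested genes with a match were higher, with a median of 0.361. Most of these 20 are clustered genes already counted above, so this is not a separate result. Over all genes tested, 50.5% were higher. The signs of H1-10, H2AZ2, H3-3A and MACROH2A2 turned when a single sample was left out, and that of H3-3A also with total-count scaling.

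The pseudogenes and non-coding genes were each higher in the fit, with log2 fold changes of 0.04 to 0.29 and none called. H2BC19P and H2BC20P, with untreated means of 437 and 459 normalized counts and log2 fold changes of 0.12 and 0.17, lie wholly in sequence shared with other genes and are uncertain. H2AZ1-DT, a transcript that overlaps H2AZ1 on the opposite strand, had 0.29 ± 0.346 (SE), and H2BW3P had 0.27 ± 0.342 (SE).

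Genes for factors that make and handle histones went either way, with more lower than higher. A list of 27 genes for histone mRNA transcription and 3' end processing, which includes SLBP, the protein that binds the stem-loop, and NPAT, the activator of clustered genes, had 25 genes tested, with 11 higher, 14 lower, a median log2 fold change of -0.026, and none called in limma with or without the block. SLBP had 637.0, 759.6 and 678.6 normalized counts in untreated neurons and 649.6, 735.8 and 640.1 in treated ones, with a log2 fold change of -0.03 ± 0.078 (SE). NPAT had -0.07 ± 0.107 (SE). Of 28 tested histone chaperones and depositors, 9 (32.1%) were higher and 19 lower, beside 50.5% higher over all genes, with a median of -0.032, and none was called without the block. With the block, 3 fell and none rose, in a fit that called 2.06% of all genes lower and 2.82% higher. NASP, a chaperone of H3 and linker histones, went from 1673 ± 110.2 to 1493 ± 57.5 normalized counts (mean ± SD, n = 3; adjusted p = 0.00762 in limma with the block). SUPT16H, a subunit of the FACT complex that moves H2A and H2B on and off nucleosomes, went from 3284 ± 151 to 3005 ± 62.6 (adjusted p = 0.00453 in limma with the block). NPM1, a nucleolar histone chaperone, went from 5852 ± 102 to 5408 ± 81.8 (adjusted p = 0.00157 in limma with the block). Their adjusted p in limma without the block was 0.497, 0.536 and 0.481.

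Markers of other cells were read beside the clustered genes, since dividing cells carry most clustered histone mRNA. In bulk samples, fewer cells of a type and less RNA per cell cannot be told apart. Of 10 genes of cycling cells, 5 had values, with a median log2 fold change of 0.091, and none was called. Fitted differences of all 5 were above 0, although that of CCNA2 rounded to 0.00. Their summed level was 529, 541 and 529.6 normalized counts in untreated neurons and 558, 633 and 530.3 in treated ones. CCNB1, which drives entry into mitosis, had 112.2 to 147.2 normalized counts and CCNA2, an S phase cyclin, 27.1 to 37.2, with log2 fold changes of 0.03 and 0.00. Among the genes of DNA replication, PCNA, the sliding clamp, had 248.5, 295.1 and 259.7 normalized counts in untreated neurons and 276.4, 326.4 and 283.1 in treated ones, higher in each pair but with overlapping groups (log2 fold change 0.14 ± 0.104 SE). TYMS, which makes thymidylate, had a log2 fold change of 0.41 ± 0.487 (SE) at means of 5.75 and 8.27 normalized counts and MCM2, a helicase subunit, 0.09 ± 0.168 (SE), and both were lower in at least 1 pair. The other genes of this list, MKI67, TOP2A, CDK1, RRM2 and BIRC5, had no values here. Sums over the 3 GABAergic neuron genes with values were 55.3 to 60.0 against 66.9 to 79.0 (2 of 3 higher, median 0.491), over the 2 astrocyte genes 159.8 to 175 against 134 to 157 (both lower, median -0.141), and over the 5 pluripotent or progenitor genes 6870 to 7169 against 6741 to 6977 (1 of 3 tested higher, median -0.024), with none of these genes called. The part of these cells in the histone differences was not tested. RN7SL1, an RNA of the signal recognition particle that has no poly(A) tail and was picked after its values were seen, had 159.8, 99.7 and 102.4 normalized counts in untreated neurons and 75.8, 53.0 and 84.1 in treated ones (log2 fold change -0.75 ± 0.206 SE, adjusted p = 0.307 in limma without and 6.79e-04 with the block). Its groups did not overlap, and each treated sample was lower than each untreated one. Sequence shared with other genes was not checked for RN7SL1. The part of RNA without a tail in the histone differences was not tested.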

How the data were processed

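The authors selected poly(A) RNA, prepared directional libraries, aligned reads to GRCh38 with STAR and counted them with featureCounts. Their versions, the annotation and the strand setting are not given in the sources used here. The deposited signal is a normalized count, meaning reads of a gene divided by a size factor from DESeq2. Each column was a whole multiple of 1 step, so whole reads were recovered for 100% of values (within 0.01).

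Tests covered genes for which at least 4 samples held more than 5 recovered reads (18130 of 19823, and 38 of 41 histone genes, all but H2BP2, H3-2 and H4C12). They used limma 3.58.1 (R 4.3.3) on log2(normalized count + 1), two-sided, with Benjamini-Hochberg adjustment over all genes. The added 1 understates changes of low genes. DESeq2 1.42.0 and edgeR 4.0.16 on recovered reads were alternatives, and the fits were tested on simulated data. Deviations from the group mean correlated at 0.269, 0.493 and 0.388 in pairs 1, 2 and 3 (11587 genes with a mean of at least 100), so the numbers in the sample titles were taken to pair the samples. Samples of different number were not compared in this way. Replicates were distinct libraries (chi-square per degree of freedom 3.32 to 5.46). Identifiers were matched to GENCODE 44 (all 41), which calls H2AW, H2BU1, H4-16 and H3-2 by the names H2AC25, H2BC26, H4C16 and H3-7. Of 63 protein-coding genes it names as clustered, 21 had values here.

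Named genes were a set of variants (H1-10, H2AX, H2AZ1, H2AZ2, H2AJ, H3-3A, H3-3B, MACROH2A1, MACROH2A2), the 10 clustered genes highest in untreated samples, every histone gene called with or without the block, and the 3 of largest change in each class with a mean of at least 10. Members and lists were chosen with earlier results of these data known. Other genes named, and the stretch of chromosome 6, were chosen after their values were seen. A single member is not reported here, although the counts and sums over members include it.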

Additional observations from a re-analysis of the deposited data

How the results depend on the processing

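The count of histone genes past an adjusted p of 0.05 was 0 in the main test and depended on the pairing: it was 6 in limma and 6 in edgeR with the replicate block, 1 in DESeq2, and 0 under TMM scaling, total-count scaling, other filters, other pseudocounts and edgeR without the block. Leaving out 1 sample gave 0 to 2. The median log2 fold change of the clustered genes was 0.337 to 0.471 under other scalings, filters, pseudocounts and tools, the highest in DESeq2, and 0.334 to 0.575 when 1 sample was left out. It was 0.394 with the block in limma. The variant median was -0.041 to 0.011 when 1 sample was left out, and the difference of both medians, 0.412 in the main fit and with the block, was 0.342 to 0.596. Assigning genes to classes by position, with H1-2 among the clustered genes, or by the stem-loop (the last added after seeing the data) moved no median by more than the spread between pairs. The clustered share of histone counts rose by 1.30 percentage points, by 1.09 to 1.63 when 1 sample was left out, by 2.0 per kilobase of exon, and by 1.24 without H2BC21 (added after seeing the data).

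The 26 named genes gave 416 values under 16 alternatives, of which 384 kept direction and side of the threshold, 15 newly passed it and 17 changed sign. All sign changes were of genes that passed in neither fit. With 1 sample left out, H1-10 ranged from -0.09 to 0.02, H2AZ2 from -0.10 to 0.01, H3-3A from -0.06 to 0.05, MACROH2A2 from -0.04 to 0.01, H2BC21 from -0.01 to 0.09, H4C8 from -0.24 to 0.83, H2AZ1-DT from -0.01 to 0.59 and H2BW3P from -0.02 to 0.60. H3-3A was at 0.00234 with total-count scaling. The cause of these changes was not tested. Depth limits the 11 clustered genes with untreated means under 100 normalized counts, where standard errors reached 0.521. Histone mRNA without a poly(A) tail is not selected by design, and how much of it was counted is not known.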
